A study of Mus musculus with 12 samples.

Results

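The genes described here are 32 direct or well known transcriptional targets of the tumour suppressor p53 and genes of apoptosis, together with the p53 gene Trp53 itself. They were taken as a list of gene symbols, chosen with earlier results of these data known, and all 32 had a row among the 39179 genes counted. The levels come from total RNA sequencing of 12 libraries of mouse embryonic stem cells, made in 2 experiments on bone morphogenetic protein (BMP) signalling. BRE-positive and BRE-negative cells (3 libraries each) came from the genotype BRE-GFP, in which a BMP response element drives GFP, on a mixed CBA, C57Bl/6 background. They were kept in FCS and Lif on feeder cells, separated in a cell sorter by SSEA1, a surface antigen of pluripotent cells, and by GFP, and collected as a positive and a negative sample at each of 3 times. KO cells (Smad1/5 -/-, 4 libraries) and FL cells (Smad1/5 fl/fl, 2 libraries) were of a mixed CD-1, 129/Ola, C57Bl/6 background and were grown in 2i, a pair of kinase inhibitors, and Lif on gelatin without feeders. The FL cells carry the floxed alleles of Smad1 and Smad5, which encode BMP signal transducers, and the KO cells are labelled -/- for both genes. A pair of parental lines was used, each giving 1 FL and 2 KO libraries, and the labels do not say which library came from which line.

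p53 is a transcription factor that is held low by MDM2, a ubiquitin ligase whose own gene p53 activates. When DNA is damaged or cells are otherwise stressed, p53 is stabilised and binds pairs of half-sites near its targets, which arrest the cell cycle, start apoptosis through the mitochondria or through death receptors, aid DNA repair and alter metabolism. Mouse embryonic stem cells are known for abundant p53, a weak G1 checkpoint and a readiness to die after damage. Whether p53 drives the transcription of these genes in the cultures here was not tested.

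Matches to the recognition sequence of p53 are shown here for some of the members that carry one next to their transcription start. RefSeq promoter windows (GRCm38.p6), from 250 bases before to 50 bases after each annotated start, were available for 24 of the 32 genes, in 33 windows. A p53 full element was taken as 2 adjoining half-sites of 10 bases with no bases between them, with the core CNNG kept in both and at most 2 mismatches to the p53 consensus in its 20 bases. A p53 half-site was counted only as an exact match, on either strand, and may overlap a full element. In these 33 windows, 4 held a full element (12.1%) and 12 held an exact half-site (36.4%), against 0.326% and 8.36% of all 32851 windows. The members were listed as known p53 targets, so a higher share was set up by that choice and is no finding of these data. The half-site of Aen lies in both of its overlapping windows and is counted in each. The windows with a full element belong to Ckap2, Ccng1, Gtse1 and Cdkn1a. Mdm2, Bax and Aen are shown as members with an exact half-site, and Trp53, Bmf, Ei24 and Sesn1, not shown, hold one too. Of the members called higher in KO cells below, Ccng1, Ckap2 and Aen had a match. Plk2, Bbc3, Eda2r and Pidd1 had windows without one, and Trp53inp1 had no window. Members that did not pass that test, such as Gtse1, Cdkn1a and Mdm2, had matches as well. A match is a description of these letters and not a measured binding site. Capitals mark the element or half-site, and each run is written 5′ to 3′ on the gene's own strand.
Ckap2 (chr8:22185983-22186042, minus strand, element starting 203 bases before the start, 2 mismatches): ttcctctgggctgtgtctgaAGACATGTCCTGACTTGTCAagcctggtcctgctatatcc
Ccng1 (chr11:40755442-40755501, minus strand, 195 bases before the start, 1 mismatch): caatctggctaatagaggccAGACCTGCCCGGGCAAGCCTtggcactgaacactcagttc
Gtse1 (chr15:85859940-85859969, plus strand, across the RefSeq start, 1 mismatch): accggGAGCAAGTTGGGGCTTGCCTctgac
Cdkn1a (chr17:29090908-29090967, plus strand, 51 bases before the upstream annotated start, 1 mismatch): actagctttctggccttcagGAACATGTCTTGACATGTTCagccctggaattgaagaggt
Mdm2 (chr10:117710915-117710964, minus strand, half-site starting 186 bases before the start): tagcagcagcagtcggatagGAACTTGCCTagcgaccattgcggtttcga
Bax (chr7:45467070-45467119, minus strand, half-site starting 201 bases before the start): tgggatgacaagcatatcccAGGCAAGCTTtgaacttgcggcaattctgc
Aen (chr7:78895917-78895966, plus strand, half-site starting 121 bases before the downstream annotated start and 11 bases after the upstream one): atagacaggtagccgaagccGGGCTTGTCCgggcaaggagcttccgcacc

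Library totals lay between 25862573 and 37319846 counts, and the mitochondrial ribosomal RNA mt-Rnr2 took between 10.05% and 14.3% of them. The summed level of 10 embryonic stem cell markers was 5646 to 6152 CPM (counts scaled to a fixed total per library) in BRE-positive, 5418 to 6542 in BRE-negative, 4777 to 5900 in KO and 5777 to 5893 in FL libraries, with none of the 10 at 0. The labels do not give the deleted part of Smad1 and Smad5, so counts over whole genes cannot check the deletion. Smad1 was at 14.5, 17.4, 13.5 and 12.3 CPM in KO libraries 1 to 4, against 19.1 and 18.0 CPM in FL libraries 1 and 2. Smad5 was at 29.8, 25.1, 32.4 and 34.6 CPM in KO libraries, against 33.7 and 31.3 CPM in FL libraries. No library differed from its group mates by as little as sampling noise alone, and KO libraries 3 and 4 were the most alike pair. CPM values below are scaled by library size with the TMM factors of edgeR, and are listed in the order of the replicate numbers.

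Reads of every member were found in each library, over a wide range of levels. On the TPM scale, which corrects for a gene length set by the authors, Bax, which encodes the pore-forming effector of mitochondrial apoptosis, ranked highest of the 32 in all 4 groups. It averaged 303 ± 32.4 TPM in BRE-positive, 308 ± 12.1 in BRE-negative, 451 ± 41.0 in KO and 387 ± 46.3 in FL libraries (SD). This rank and those below rest on lengths that differ from the exon lengths of GENCODE M21. Bax and Phlda3 have 1.58 and 1.56 kb of exons there. Yet in BRE-negative libraries Bax averaged 308 TPM for 100 CPM and Phlda3 115 TPM for 86.6 CPM. Ccng1, Gtse1, Sesn2 and Ckap2 held ranks 2 to 5 in BRE-negative, KO and FL libraries, and in BRE-positive libraries Pmaip1 (184 ± 28.7 TPM) stood before Sesn2 (165 ± 20.3 TPM). Ccng1 averaged 216 ± 45.2 TPM in BRE-positive, 182 ± 32.5 in BRE-negative, 244 ± 26.1 in KO and 165 ± 14.8 in FL libraries. The order of these 4 differed between groups, and in KO libraries Sesn2 (188 ± 21.03 TPM) and Gtse1 (187 ± 21.5 TPM) lay well within each other's spread.

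Trp53 ranked 10 in BRE-positive (77.8 ± 14.7 TPM), BRE-negative (76.1 ± 9.12) and KO libraries (75.8 ± 17.3) and 8 in FL libraries (64.3 ± 2.70). Cdkn1a, the gene of the cyclin-dependent kinase inhibitor p21, was at a lower level, 37.8 ± 11.1, 34.3 ± 14.9, 50.5 ± 7.33 and 41.8 ± 6.45 TPM in BRE-positive, BRE-negative, KO and FL libraries. At the other end stood Fas, the death receptor for FAS ligand, with 1.22 ± 0.4999, 0.956 ± 0.186, 0.188 ± 0.121 and 0.259 ± 0.112 TPM in the same order. Dram1, the gene of a lysosomal membrane protein of autophagy, was the lowest member in every group, at 0.213 ± 0.0539, 0.145 ± 0.0717, 0.122 ± 0.0435 and 0.113 ± 0.0329 TPM. Because the deposited TPM values contain 1 added count per gene, these lowest levels are overstated.

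The first comparison asked how the genes differ in cells labelled -/- for Smad1 and Smad5. Of the 32 members, 30 had enough reads to be tested between KO and FL cells, 8 were higher in KO cells and 0 were lower by edgeR's quasi-likelihood test with a Benjamini-Hochberg adjusted p under 0.05. The 8 were Ccng1, Plk2, Ckap2, Bbc3, Eda2r, Pidd1, Aen and Trp53inp1, and they rose between 1.34-fold and 2.01-fold. Among all 15933 genes tested, 1.85% were higher and 3.18% were lower. The members' median log2 fold change was 0.32, against 0.012 for all genes, and 25 of 30 were above 0. All 4 KO libraries stood above both FL libraries for 16 members, against 17.8% of all genes, and below both for 3 members, against 16.9% of all genes. At an unadjusted p under 0.05, 19 of the 30 members were counted in edgeR, against 3646 of all 15933 genes. Of the 19, 3 were lower, namely Rrm2b, Xpc and Sesn1. DESeq2 called 13 members higher and 2 lower, against 653 and 845 of all 15933 genes.

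These calls rested on few libraries. Without FL library 1, 0 members passed in edgeR (14 had an unadjusted p under 0.05) and 0 genes in the whole table did, and without FL library 2, 0 members passed (20 unadjusted), with 142 genes called. Between 2 and 10 members passed when 1 KO library was left out. These were 10 without KO 1, 4 without KO 2, 2 without KO 3 and 2 without KO 4. All were higher in KO cells except 1 of the 4 without KO 2. Calls among all genes in these fits were 857, 538, 236 and 215, in the same order. In comparisons added after the values had been seen, KO libraries 1 and 2 alone gave 0 calls among the members (19 unadjusted). Among all 15536 genes, 89 were called there (2834 unadjusted). KO libraries 3 and 4 alone gave 24 member calls, 20 of them higher, against 3292 of 15664 genes, 1546 of them higher. The members' median stayed between 0.22 and 0.48 throughout. In bulk RNA, fewer cells of a type and less RNA per cell cannot be told apart, here and below.

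**Figure D1:**
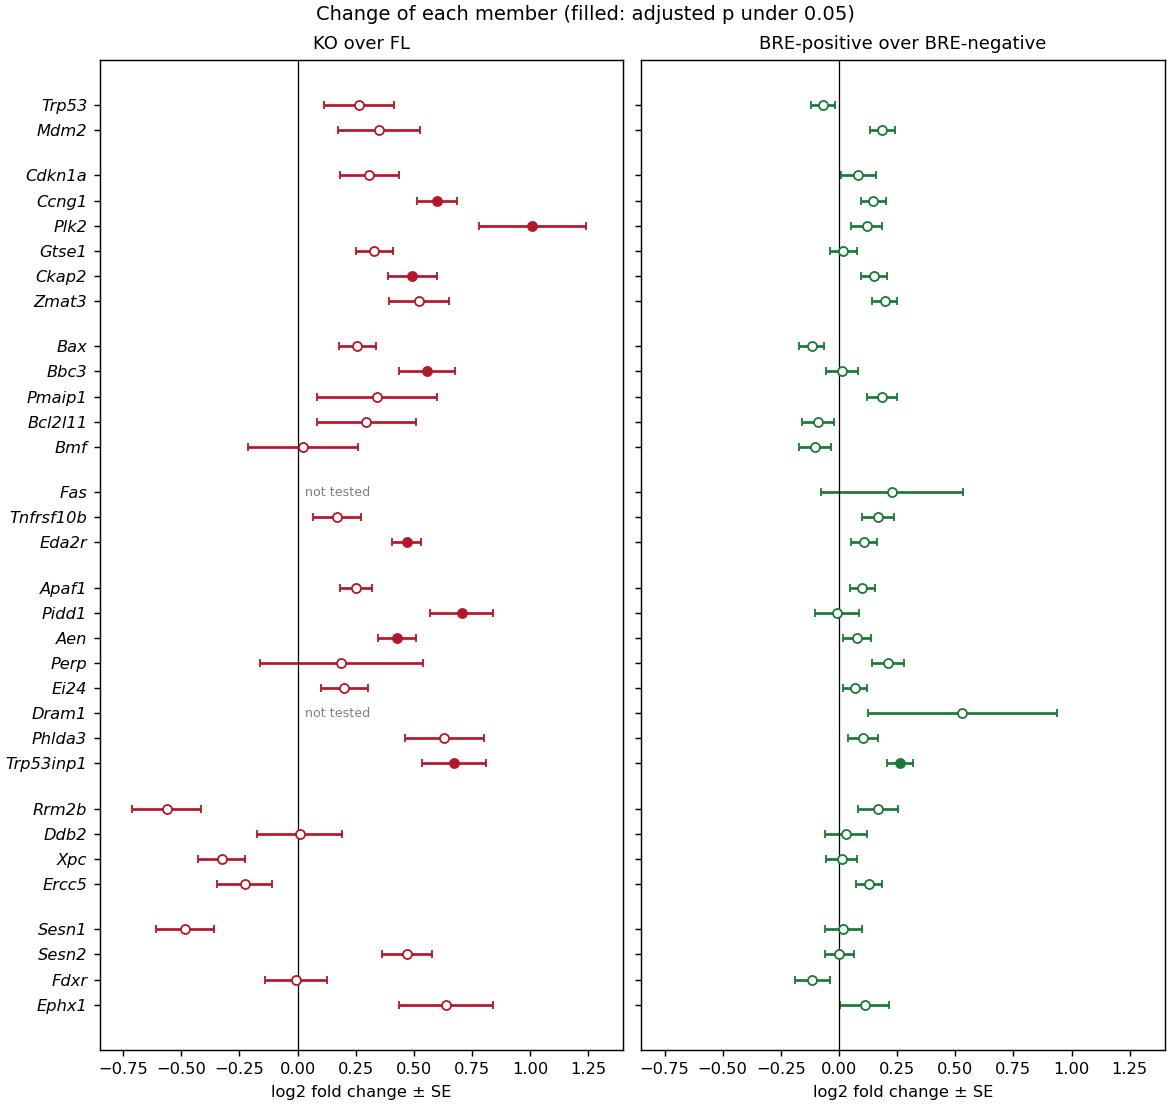
The log2 fold change of each member with its standard error is shown for KO over FL (left) and BRE-positive over BRE-negative (right), with members grouped by role from top to bottom. Filled points have an edgeR adjusted p under 0.05: 8 members lie to the right of 0 on the left and 1, Trp53inp1, on the right, while Fas and Dram1 had too few reads to be tested between KO and FL.

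Neither the p53 gene nor its inhibitor passed the test between KO and FL. Trp53 was at 175, 175, 228 and 248 CPM in KO libraries, against 169 and 175 CPM in FL libraries. KO libraries 1 and 2 lay at the FL level and KO 3 and 4 above it, and the fitted difference was 0.26 ± 0.15 on the log2 scale (± SE here and below; edgeR adjusted p = 0.334). Mdm2 was at 138, 155, 204 and 196 CPM in KO libraries, against 119 and 154 CPM in FL libraries. The groups overlapped, since KO 1 was below FL 2, and the log2 fold change was 0.35 ± 0.18 (edgeR adjusted p = 0.279).

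Among the 6 cell cycle and feedback genes, 3 rose in KO cells and all 6 had a positive log2 fold change, with a median of 0.51. Ccng1 encodes cyclin G1, which directs a phosphatase to MDM2 (GRCm38 chr11:40748552-40755311, minus strand). It was at 349.8, 396, 406 and 405 CPM in KO libraries, against 244 and 270.2 CPM in FL libraries. Every KO library lay well above both FL libraries, and Ccng1 was 1.52-fold higher (log2 0.60 ± 0.09, edgeR adjusted p = 0.0142). Plk2 encodes a polo-like kinase that acts in centriole duplication (chr13:110395046-110400844, plus strand). It was at 49.0, 62.3, 79.7 and 79.9 CPM in KO libraries, against 27.6 and 39.7 CPM in FL libraries. The groups did not overlap, KO 3 and 4 were the highest, and the change was the greatest among the tested members, 2.01-fold (log2 1.01 ± 0.23, edgeR adjusted p = 0.0478).

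Ckap2, whose product is a spindle protein (chr8:22168160-22185819, minus strand), was at 127, 143, 159.6 and 156 CPM in KO libraries, against 98.5 and 109.7 CPM in FL libraries. All KO values were above both FL values, a 1.41-fold rise (log2 0.49 ± 0.11, edgeR adjusted p = 0.0421). Cdkn1a was at 47.5, 60.3, 60.6 and 60.9 CPM in KO libraries, against 41.9 and 50.8 CPM in FL libraries. KO 1 fell between the FL libraries while the other KO libraries were above both, and Cdkn1a did not pass the test (log2 0.31 ± 0.13, edgeR adjusted p = 0.202). Gtse1, the gene of a microtubule-binding protein that restrains p53, differed by 0.33 ± 0.08 on the log2 scale (edgeR adjusted p = 0.0562), and Zmat3, the gene of an RNA-binding zinc finger protein, by 0.52 ± 0.13 (edgeR adjusted p = 0.0612). For both, all KO libraries were above both FL libraries. Of the 4 genes with a full p53 element in the printed promoters, Ckap2 and Ccng1 passed the test and Gtse1 and Cdkn1a did not.

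**Figure D2:**
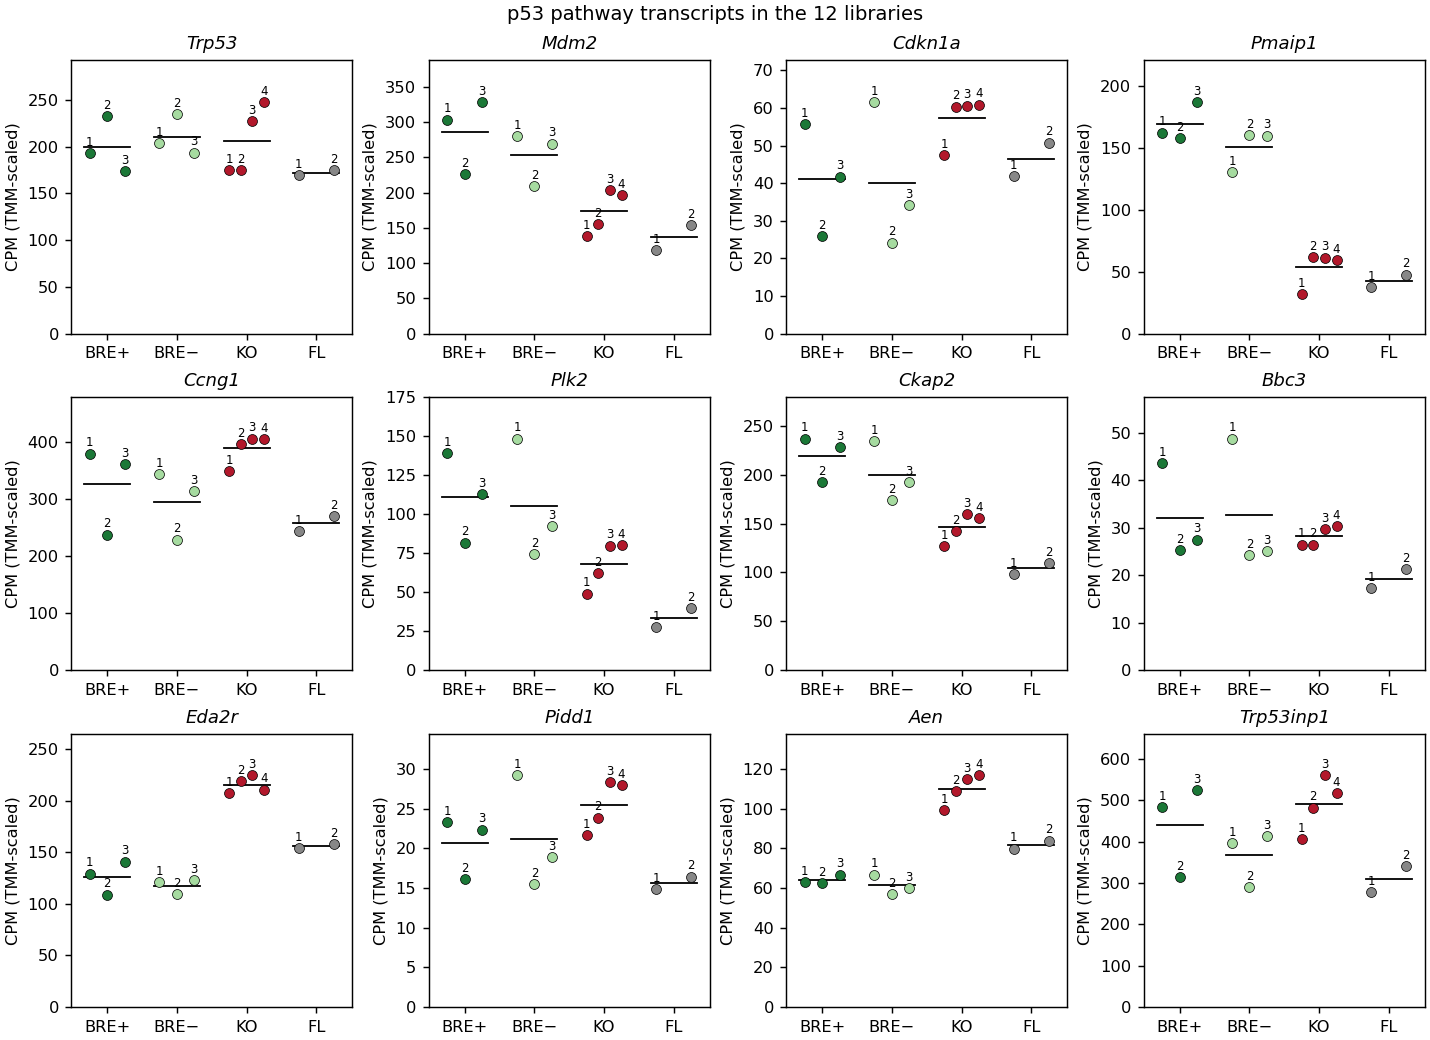
CPM of 12 members in every library, with each library's replicate number above its point and the group mean as a line (BRE+ and BRE− are the BRE-positive and BRE-negative cells). Ccng1, Ckap2, Eda2r, Pidd1 and Aen show all KO points above both FL points, and in Pmaip1 and Cdkn1a the point of KO library 1 lies apart from the other KO points.

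The BCL-2 family members of the list had a median log2 fold change of 0.30 in KO over FL, and 1 of 5 rose. Bbc3 encodes PUMA, a BH3-only protein that frees the pore formers (chr7:16308393-16318205, plus strand). It was at 26.4, 26.4, 29.7 and 30.3 CPM in KO libraries, against 17.2 and 21.2 CPM in FL libraries. The groups were apart, with Bbc3 1.47-fold higher in KO cells (log2 0.56 ± 0.12, edgeR adjusted p = 0.0427). Pmaip1, the gene of the BH3-only protein NOXA, was at 31.7, 61.7, 61.2 and 59.5 CPM in KO libraries, against 37.2 and 47.6 CPM in FL libraries. KO 1 was the lowest of the 6 libraries and KO 2 to 4 the highest, so the groups overlapped (log2 0.34 ± 0.26, edgeR adjusted p = 0.470). Bax differed by log2 0.26 ± 0.08 (edgeR adjusted p = 0.107), Bcl2l11, the gene of BIM, 0.30 ± 0.21 (0.446) and Bmf 0.02 ± 0.24 (0.966). Bmf ran from 16.3 to 28.0 CPM in KO libraries, high in KO 1 and 2 and low in KO 3 and 4, on either side of the FL values of 22.2 and 20.5 CPM.

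Of the death receptor genes, Eda2r, which encodes the receptor for ectodysplasin A2, rose in KO cells (chrX:97333840-97377216, minus strand). It was at 208, 219, 225 and 211 CPM in KO libraries, against 154 and 158 CPM in FL libraries. The KO libraries were close together and all far above the FL pair, and the change was 1.38-fold (log2 0.47 ± 0.06, edgeR adjusted p = 0.0121). Tnfrsf10b, the gene of the mouse TRAIL receptor, differed by log2 0.17 ± 0.10 (edgeR adjusted p = 0.372). Fas had 1 to 6 reads per KO library and 3 and 7 reads in the FL libraries and was not tested.

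Among the other genes of death and autophagy, 3 of 7 tested rose. Pidd1 encodes the scaffold of the caspase-2 activating complex (chr7:141438113-141444025, minus strand). It was at 21.7, 23.9, 28.4 and 28.0 CPM in KO libraries, against 14.9 and 16.4 CPM in FL libraries. The groups did not overlap, and Pidd1 was 1.63-fold higher in KO cells (log2 0.70 ± 0.14, edgeR adjusted p = 0.0327). Aen encodes a nuclease that enhances apoptosis (chr7:78895854-78911209, plus strand). It was at 99.3, 109, 115 and 117 CPM in KO libraries, against 79.9 and 84.0 CPM in FL libraries. All KO values were above the FL values, a 1.34-fold rise (log2 0.43 ± 0.08, edgeR adjusted p = 0.0325).

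Trp53inp1, whose product takes part in autophagy and in p53 activation (chr4:11156431-11174379, plus strand), was at 406, 482, 561 and 518 CPM in KO libraries, against 278 and 340.1 CPM in FL libraries. Again every KO library was above both FL libraries, with a 1.59-fold rise (log2 0.67 ± 0.14, edgeR adjusted p = 0.0373). Phlda3, the gene of an AKT inhibitor, differed by log2 0.63 ± 0.17 (edgeR adjusted p = 0.0788) and Apaf1, the gene of the apoptosome scaffold, 0.25 ± 0.07 (0.0806), each without overlap of the groups. Ei24 (0.20 ± 0.10, edgeR adjusted p = 0.284) and Perp (0.19 ± 0.35, edgeR adjusted p = 0.792) overlapped between the groups, and Perp was at 38.7 and 34.6 CPM in KO 3 and 4 but at 20.5 and 16.9 CPM in KO 1 and 2. Dram1 was too low to be tested.

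Of the repair and nucleotide supply genes, none of the 4 passed the test, and Rrm2b, Xpc and Ercc5 were below 0. Their median log2 fold change in KO over FL was -0.28. Rrm2b encodes the p53-inducible small subunit of ribonucleotide reductase. It was at 9.19, 8.34, 8.04 and 7.18 CPM in KO libraries, against 13.3 and 10.9 CPM in FL libraries (log2 -0.56 ± 0.15, edgeR adjusted p = 0.0723). Xpc, the gene of a DNA damage sensor, had -0.33 ± 0.10 (edgeR adjusted p = 0.107), and for both genes all KO values were below the FL values. Ercc5, the gene of a repair endonuclease, had -0.23 ± 0.12 (edgeR adjusted p = 0.296) and Ddb2, which recognises ultraviolet lesions, 0.01 ± 0.18 (0.983).

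The stress metabolism genes were divided. Sesn1 and Sesn2 encode sestrins, which restrain mTORC1 signalling. Sesn1 was at 22.4, 25.7, 19.9 and 20.3 CPM in KO libraries, against 33.2 and 28.7 CPM in FL libraries, with all KO values below the FL values (log2 -0.48 ± 0.12, edgeR adjusted p = 0.0684). Sesn2 was at 245, 218, 244 and 258 CPM in KO libraries, against 154 and 195 CPM in FL libraries, with all KO values above the FL values (log2 0.47 ± 0.11, edgeR adjusted p = 0.0502). These related genes thus stood on opposite sides of their FL levels, although neither passed the test. Ephx1, the gene of microsomal epoxide hydrolase, was at 57.5, 41.8, 32.8 and 38.6 CPM in KO libraries, against 26.2 and 28.7 CPM in FL libraries (log2 0.64 ± 0.20, edgeR adjusted p = 0.113), with KO 1 the highest. Fdxr, the gene of ferredoxin reductase, had -0.01 ± 0.13 (edgeR adjusted p = 0.985).

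The members also differed among libraries of 1 group. KO libraries 3 and 4 were both above KO libraries 1 and 2 for 19 of 30 members, against 27.3% of all genes tested, and FL library 2 was above FL library 1 for 25 of 30, against 50.1% of all genes. Plk2, Pidd1, Trp53inp1, Ccng1 and Ckap2 were among those that followed both patterns, whereas Bmf, Fdxr, Rrm2b and Sesn1 ran the other way in both. Whether these differences go with the parental lines cannot be told apart from other differences between the libraries, since the lines are not labelled. Summed feeder fibroblast markers were 36.0 to 50.7 CPM in KO and 35.1 to 49.5 CPM in FL libraries, with 5 to 8 and 2 to 5 of the 22 markers at 0, and Col3a1 was at most 0.0339 CPM in KO and 0.217 CPM in FL libraries.

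**Figure D3:**
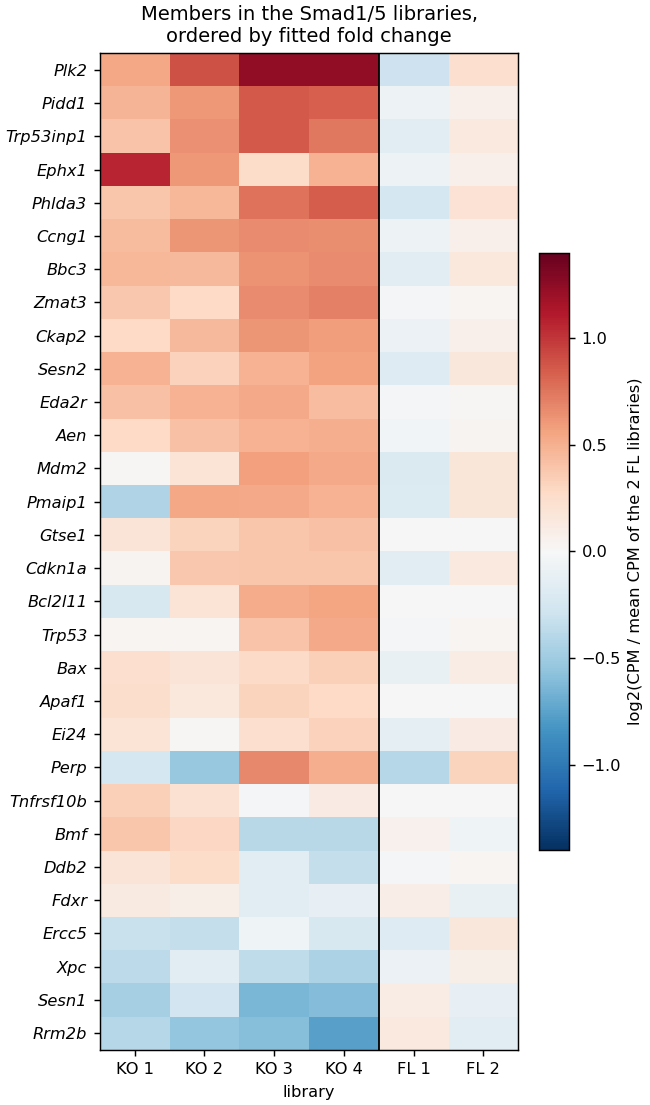
Each row is a tested member and each column a Smad1/5 library, with colour giving log2 of the CPM over the mean CPM of the FL libraries, and rows ordered by the fitted fold change of KO over FL. Plk2, Pidd1 and Trp53inp1 are darkest in KO libraries 3 and 4, KO 1 stands apart for Pmaip1 and Ephx1, and Sesn1 and Rrm2b at the bottom are below FL in all 4 KO libraries.

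Genes around the members were compared from lists of 8 kinds, of which 5 concern the pathway. The lists were chosen with earlier results of these data known, so their counts are no independent support. Of 35 tested p53 targets outside the members, 7 were higher and 0 lower in KO cells, with a median log2 fold change of 0.22 (edgeR; 16 had an unadjusted p under 0.05). Ak1, an adenylate kinase gene, was at log2 0.70 ± 0.10 (edgeR adjusted p = 0.0151) and Psrc1, the gene of a spindle protein, 0.52 ± 0.08 (0.0173). The antiproliferative gene Btg2 had 0.73 ± 0.14 (0.0308) and the thiamine transporter gene Slc19a2 0.45 ± 0.09 (0.0313). None of 22 regulators of p53 passed in edgeR, and 9 had an unadjusted p under 0.05. Among all 15933 genes tested, 3646 had an unadjusted p under 0.05, 1.85% were called higher and 3.18% lower. Of 13 further BCL-2 family genes, Bcl2l1, which encodes the survival protein BCL-XL and is also a listed target, was higher (0.41 ± 0.09, edgeR adjusted p = 0.0481). Bak1, the gene of the second pore former, was lower (-0.47 ± 0.07, 0.0173), as was Mcl1, the gene of another survival protein (-0.44 ± 0.07, 0.0192). None of 21 caspases and cofactors passed (2 unadjusted), and of 20 mitotic genes that p53 represses through p21 and the DREAM complex, 1 was lower, Kif23 (-0.37 ± 0.06, edgeR adjusted p = 0.0185). Of the stem cell markers, Nanog was lower (-0.60 ± 0.06, edgeR adjusted p = 0.00613) and Utf1 higher (0.76 ± 0.12, 0.0188). Of 13 immediate early and heat shock genes 1 was lower, Ier3 (-1.64 ± 0.37, edgeR adjusted p = 0.0461), and of 10 tested feeder markers 1 was lower, Loxl1 (-1.71 ± 0.34, 0.0338).

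The second comparison asked how the genes differ between cells with and without BMP reporter activity. All 32 members were tested within the collection pairs, and 1 of them, Trp53inp1, was higher in BRE-positive cells, against 1.96% of all 15435 genes, while 0 were lower, against 1.02% of all genes. At an unadjusted p under 0.05, 10 members were counted in edgeR, against 2817 of all 15435 genes. Of the 10, Bax was lower (edgeR unadjusted p = 0.0475), and DESeq2 called 1 member and 323 genes. Trp53inp1 was at 484, 313 and 525 CPM in BRE-positive libraries of collections 1 to 3, against 397, 289.8 and 413 CPM in BRE-negative libraries. It was higher in BRE-positive cells in every pair, by 1.20-fold (log2 0.26 ± 0.06, edgeR adjusted p = 0.0242), while the values of collection 2 were below those of both other collections in either fraction.

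The difference between the fractions was small for the other members. The median log2 fold change over the 32 was 0.10, against -0.00088 for all genes, and 26 were above 0. BRE-positive was higher than BRE-negative in 3 of 3 pairs for 12 members, against 17.6% of all genes, and lower in 3 of 3 pairs for 3 members, against 22.7%. The 12 included Mdm2, Ccng1, Ckap2, Zmat3, Apaf1, Tnfrsf10b and Ei24, and the 3 were Trp53, Bax and Bcl2l11. When collection 1 was left out, 12 members passed, all higher in BRE-positive cells. Calls among all genes rose too, from 459 to 2225 of 15441 (1115 higher and 1110 lower). Without collection 2, 2 members and 397 genes passed. Without collection 3 the edgeR test called 0 members (2 unadjusted) and 200 genes.

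Mdm2 was at 303, 226 and 329 CPM in BRE-positive libraries, against 280.3, 209 and 269 CPM in BRE-negative libraries. The positive fraction was the higher in every pair, while the collections differed by more than the fractions did (log2 0.19 ± 0.05, edgeR adjusted p = 0.0858). Trp53 was at 193, 232 and 174 CPM in BRE-positive libraries, against 204, 235 and 194 CPM in BRE-negative libraries, slightly lower in each pair (log2 -0.07 ± 0.05, edgeR adjusted p = 0.535). Cdkn1a was at 55.7, 25.9 and 41.8 CPM in BRE-positive libraries, against 61.6, 24.2 and 34.2 CPM in BRE-negative libraries. Its level was highest in collection 1 and lowest in collection 2 in both fractions, and the fractions took no fixed order (log2 0.08 ± 0.08, edgeR adjusted p = 0.613).

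The members that were higher in KO cells did not pass here, apart from Trp53inp1. Ccng1 was at 379.9, 238 and 361 CPM in BRE-positive libraries, against 344, 229 and 313 CPM in BRE-negative libraries, higher in every pair (log2 0.15 ± 0.05, edgeR adjusted p = 0.156). Ckap2 was at 237, 192 and 229 CPM in BRE-positive libraries, against 234, 174 and 193 CPM in BRE-negative libraries, also higher in every pair (log2 0.15 ± 0.06, edgeR adjusted p = 0.176). Plk2, Bbc3, Pidd1, Aen and Eda2r had log2 fold changes of 0.12 ± 0.07, 0.01 ± 0.07, -0.01 ± 0.09, 0.08 ± 0.06 and 0.11 ± 0.06, with edgeR adjusted p-values from 0.321 to 0.970. Of the BCL-2 family members, Pmaip1 had 0.19 ± 0.06 (edgeR adjusted p = 0.143), Bax -0.12 ± 0.05 (0.270), Bcl2l11 -0.09 ± 0.07 (0.530) and Bmf -0.10 ± 0.07 (0.466). Among the other genes, Zmat3 had 0.20 ± 0.05 (edgeR adjusted p = 0.0658), Perp 0.21 ± 0.07 (0.123), Tnfrsf10b 0.17 ± 0.07 (0.212) and Phlda3 0.10 ± 0.06 (0.440). Apaf1, Ei24 and Gtse1 were at 0.10, 0.07 and 0.02, and Fas (0.23 ± 0.30) and Dram1 (0.53 ± 0.41) had wide errors on few reads. The 4 genes of repair and nucleotide supply were between 0.01 (Xpc) and 0.17 (Rrm2b), and the stress metabolism genes between -0.12 (Fdxr) and 0.11 (Ephx1).

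The collections also differed among themselves. Both libraries of collection 1 were above the 4 libraries of collections 2 and 3 for 16 of 32 members, against 22% of all genes. Bbc3 was at 43.6, 25.3 and 27.5 CPM in BRE-positive libraries of collections 1 to 3, against 48.8, 24.3 and 25.1 CPM in BRE-negative libraries. Collection 1 was thus far above the other collections in both fractions. Pidd1 (23.4, 16.1 and 22.4 CPM in BRE-positive, against 29.2, 15.5 and 18.9 CPM in BRE-negative libraries) and Plk2 (139, 81.8 and 113 CPM in BRE-positive, against 148, 74.4 and 92.5 CPM in BRE-negative libraries) had the same order, collection 1 highest and collection 2 lowest. The difference between collections was not tested.

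Of the surrounding lists, none of 35 other p53 targets passed between the fractions (edgeR; 9 unadjusted), nor did any of 14 BCL-2 family genes (0 unadjusted) or 22 caspases and cofactors (3 unadjusted). Among 22 regulators of p53, 2 were higher in BRE-positive cells. They were Prkdc, the gene of a DNA damage kinase (log2 0.24 ± 0.05, edgeR adjusted p = 0.0244), and Mdm4, the gene of an MDM2 relative that inhibits p53 (0.21 ± 0.05, 0.0468). The mitotic gene Cenpf was higher (0.35 ± 0.06, edgeR adjusted p = 0.00709), and 0 of 10 stem cell markers passed (2 unadjusted). Feeder fibroblast markers summed to 133 to 274 CPM in BRE-positive and 176 to 320 CPM in BRE-negative libraries, with none of 22 at 0. Of 20 tested, 4 were lower in BRE-positive cells (Acta2, Fbln2, Col1a2 and Tagln), with a median log2 fold change of -0.40. Of 14 immediate early and heat shock genes, 3 were lower (Egr2, Jun and Ier2). The part of these markers in the members' values was not tested.

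The third comparison set BRE-negative cells against FL cells, the comparator of each experiment. Medium, feeders or gelatin, parental line, strain, reporter, floxed alleles and sorting all differ between them and cannot be told apart. It shares the FL libraries with the first comparison and the BRE-negative libraries with the second, so its values are not independent of theirs. Of 32 members, 11 were higher in BRE-negative cells and 3 lower, against 22.3% and 23.4% of all 16360 genes tested. The 11 were Mdm2, Plk2, Gtse1, Ckap2, Pmaip1, Bcl2l11, Fas, Apaf1, Phlda3, Ercc5 and Fdxr, and the 3 were Eda2r, Aen and Ei24. Fas, with 3 and 7 reads in the FL libraries, entered the test only through the BRE-negative libraries, so its call is no support for a difference of the members. The median log2 fold change of the members was 0.27, against -0.0049 for all genes. Without FL library 1, 6 members passed, and without FL library 2, 8 passed.

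Of the 5 BCL-2 family members, 2 were higher in BRE-negative cells, Pmaip1 and Bcl2l11, and 0 were lower (unadjusted p = 0.0344 for Bax, which was below 0). Pmaip1 was at 131, 160.2 and 159.8 CPM in BRE-negative libraries, against 37.2 and 47.6 CPM in FL libraries. The groups were far apart, and Pmaip1 was 3.54-fold higher (log2 1.83 ± 0.16, edgeR adjusted p = 6.62e-05). Bcl2l11 was at 29.6, 23.7 and 23.0 CPM in BRE-negative libraries, against 13.4 and 13.3 CPM in FL libraries, again without overlap and 1.91-fold higher (log2 0.93 ± 0.16, edgeR adjusted p = 0.00186). Bax stood the other way without passing the test (log2 -0.28 ± 0.11, edgeR adjusted p = 0.0692), and Bbc3 (0.77 ± 0.30, 0.0615) and Bmf (0.49 ± 0.19, 0.0560) did not pass either.

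Fas had 27, 14 and 19 reads in BRE-negative libraries, against 3 and 7 reads in FL libraries. It was at 0.752, 0.459 and 0.636 CPM in BRE-negative libraries, against 0.0890 and 0.190 CPM in FL libraries, and the fitted difference had a wide error (log2 2.10 ± 0.53). Its edgeR adjusted p of 0.0120 became 0.111 without FL library 1. Eda2r was lower in BRE-negative cells (log2 -0.40 ± 0.11, edgeR adjusted p = 0.0163), at 121, 109 and 123 CPM in BRE-negative libraries, against 154 and 158 CPM in FL libraries. Tnfrsf10b did not pass (log2 -0.10 ± 0.20, edgeR adjusted p = 0.721).

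Plk2 was at 148, 74.4 and 92.5 CPM in BRE-negative libraries, against 27.6 and 39.7 CPM in FL libraries. Every BRE-negative value was above both FL values although collection 1 was far above the others, and Plk2 was 3.12-fold higher (log2 1.64 ± 0.29, edgeR adjusted p = 0.00216). Ckap2 was at 234, 174 and 193 CPM in BRE-negative libraries, against 98.5 and 109.7 CPM in FL libraries, without overlap and 1.92-fold higher (log2 0.94 ± 0.15, edgeR adjusted p = 0.00128). Mdm2 was at 280.3, 209 and 269 CPM in BRE-negative libraries, against 119 and 154 CPM in FL libraries, 1.86-fold higher (log2 0.89 ± 0.17, edgeR adjusted p = 0.00325). For Mdm2 too the groups were apart.

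Phlda3 was at 117, 63.0 and 79.6 CPM in BRE-negative libraries, against 36.6 and 50.0 CPM in FL libraries, 2.002-fold higher and highest in collection 1 (log2 1.002 ± 0.25, edgeR adjusted p = 0.0118). Fdxr was at 27.2, 20.6 and 19.1 CPM in BRE-negative libraries, against 13.2 and 11.6 CPM in FL libraries, 1.798-fold higher (log2 0.85 ± 0.19, edgeR adjusted p = 0.00631). Neither gene overlapped between the groups. Smaller rises were those of Gtse1 (log2 0.44 ± 0.15, edgeR adjusted p = 0.0374), Apaf1 (0.39 ± 0.13, 0.0351) and Ercc5 (0.68 ± 0.22, 0.0303). Aen (-0.42 ± 0.11, edgeR adjusted p = 0.0164) and Ei24 (-0.37 ± 0.12, 0.0315) were lower in BRE-negative cells.

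Trp53 and Cdkn1a did not pass the test between the cultures with all libraries. Trp53 was at 204, 235 and 194 CPM in BRE-negative libraries, against 169 and 175 CPM in FL libraries, without overlap (log2 0.29 ± 0.12, edgeR adjusted p = 0.0796). Cdkn1a was at 61.6, 24.2 and 34.2 CPM in BRE-negative libraries, on either side of 41.9 and 50.8 CPM in FL libraries (log2 -0.21 ± 0.32, edgeR adjusted p = 0.624). Without BRE-negative library 1 both passed in edgeR, Trp53 as higher (log2 0.33, adjusted p = 0.0425) and Cdkn1a as lower (log2 -0.65, adjusted p = 0.0168), while without BRE-negative library 2 the log2 fold change of Cdkn1a was 0.06 (adjusted p = 0.879). The members left, Ccng1, Zmat3, Pidd1, Perp, Dram1, Trp53inp1, Rrm2b, Ddb2, Xpc, Sesn1, Sesn2 and Ephx1, had log2 fold changes between -0.43 (Ephx1) and 0.44 (Pidd1), none past the threshold.

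**Figure D4:**
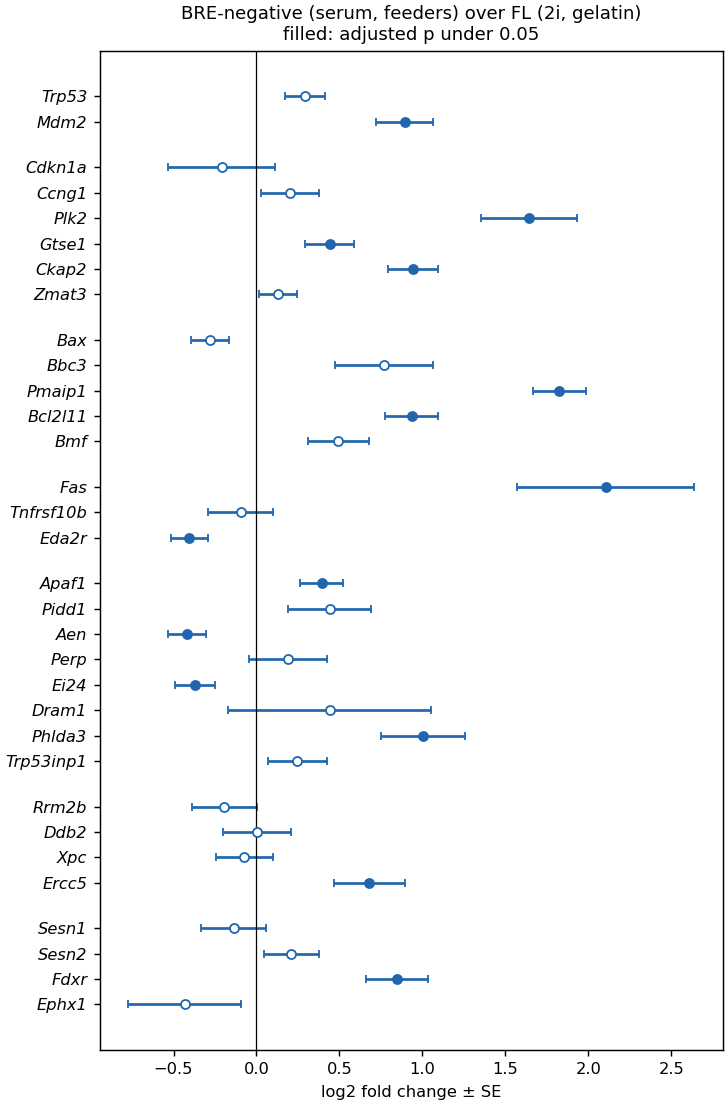
The log2 fold change with its standard error of each member in BRE-negative over FL libraries, with members grouped by role and filled points for an edgeR adjusted p under 0.05. Fas, Pmaip1 and Plk2 lie farthest to the right, Eda2r, Aen and Ei24 are the filled points to the left of 0, and Trp53 and Cdkn1a are open.

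The lists around the members moved in both directions between the cultures, as did all genes tested (22.3% higher and 23.4% lower). Other p53 targets were higher for 14 and lower for 3 of 35, with a median log2 fold change of 0.31. Epha2, an ephrin receptor gene, had 1.90 ± 0.15 (edgeR adjusted p = 3.64e-05) and the antiproliferative gene Btg1 1.26 ± 0.13 (0.000140), while Ak1 had -1.19 ± 0.13 (0.000233) and the stress cytokine gene Gdf15 -2.51 ± 0.30 (0.000296). Of 22 regulators of p53, 6 were higher (27.3%) and 3 lower (13.6%). Cdkn2a, whose locus also encodes the MDM2 inhibitor ARF, had -2.96 ± 0.29 (edgeR adjusted p = 0.000119). The phosphatase gene Ppm1d had 1.12 ± 0.12 (0.000207), the checkpoint kinase gene Atr -1.05 ± 0.12 (0.000254) and the acetyltransferase gene Ep300 0.76 ± 0.15 (0.00356).

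Of 14 further BCL-2 family genes, 6 were higher and 5 lower. Among them were the survival gene Bcl2 (log2 3.73 ± 0.52, edgeR adjusted p = 0.000679), Bcl2l13 (0.80 ± 0.11, 0.000484), the BH3-only gene Bid (0.82 ± 0.11, 0.000499) and Bcl2l14 (-1.66 ± 0.24, 0.000745). Like Fas, Bcl2 had too few reads to be tested between KO and FL and entered here only through the BRE-negative libraries. Of 22 caspases and cofactors, 6 were higher and 6 lower (27.3% each, against 22.3% and 23.4% of all genes). The initiator caspase gene Casp8 had 2.05 ± 0.24 (edgeR adjusted p = 0.000292), and Aifm1 (-1.22 ± 0.11, 9.24e-05), the caspase inhibitor gene Xiap (-1.37 ± 0.16, 0.000275) and Birc5, the gene of survivin (-0.84 ± 0.10, 0.000369), were lower. The mitotic genes were higher for 4 (20%) and lower for 5 (25%) of 20, near the shares of all genes. The stem cell markers were higher for 4 and lower for 3 of 10. Feeder fibroblast markers were higher in BRE-negative cells for 19 of 20 tested, with a median log2 fold change of 4.11. They summed to 176 to 320 CPM in BRE-negative and 35.1 to 49.5 CPM in FL libraries, where 2 to 5 of 22 were at 0. Only 10 feeder markers had enough reads to be tested between KO and FL. The others tested here, such as Postn, Lum and Acta2, entered only through the BRE-negative libraries, where they were high. Their direction was thus fixed in advance, and the count and the median include them. Immediate early and heat shock genes were higher for 11 and lower for 1 of 14. The part of the feeder and early response genes in the members' values was not tested.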

How the data were processed

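Per the labels' protocols, RNA was purified on columns, ribosomal RNA was removed, and the libraries kept strand information. The submitters' processing notes name featureCounts 1.4.6, STAR 2.4.1d, DESeq2 1.6.3, CASAVA 1.8.2 and FastQC 0.11.3, and the builds mm10 and GRCm38.p4. The sources used here do not give the strand setting of the counting. Reads of Ddb2 and Ei24, whose exons overlap a gene on the opposite strand by 23.8% and 6.7% of their length in GENCODE M21, may include that gene's, and the other 30 members share no exon base. The authors deposited raw counts for 39179 genes and a second table of TPM values with symbols, a normalised signal made by the authors. Checked against the counts, the TPM equals the count plus 1 per length, scaled per library. It has 39032 rows for 38310 genes, and each gene was used once.

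Groups came from the sample titles. Counts were tested with edgeR 4.0.16 in R 4.3.3 (quasi-likelihood, TMM scaling, expression filter with a minimum count of 10 and a total of 15), with Benjamini-Hochberg adjustment over all genes tested and a threshold of 0.05. The SE of an edgeR log2 fold change was worked back from the test, as its absolute size over the square root of the F statistic. The BRE fit used the collection pair as a block, which the series' design states. Same-numbered BRE libraries deviated together (correlations 0.757, 0.680 and 0.627). The KO fit had no block, and treats the KO libraries as unrelated although each line gave 2 of them. The third fit used 3 BRE-negative and 2 FL libraries. The FL libraries came from different lines and the BRE pairs from different collection times. Nothing says that these collections, or the KO libraries of the same line, were separate cultures. The p-values thus reflect only how much these libraries vary, which may in part be technical. Alternatives were DESeq2 1.42.0, RLE scaling, other filters, all 12 libraries in 1 fit, limma 3.58.1 on log2(TPM + 1) and log2(TPM + 0.1), offsets for length, the fits with or without a replicate block, libraries left out in turn, and BRE-positive over FL. KO libraries 1 and 2 or 3 and 4 alone were added after seeing the data.

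The members and the lists were chosen with earlier results of these data known. Per-library values are given for Trp53, Mdm2 and Cdkn1a, for each member called in the first 2 comparisons and for the 8 called members with the largest change in the third. Up to 4 called genes of each list are named. Per-library values of Rrm2b, Sesn1, Sesn2, Ephx1, Perp and Bmf were added after their values were seen, as were those of Eda2r in the third comparison and of Bbc3, Pidd1 and Plk2 by collection. Promoter sequences and starts are from RefSeq (GRCm38.p6), and gene coordinates from GENCODE M21 (GRCm38), 1-based.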

Additional observations from a re-analysis of the deposited data

Results flagged for a closer look

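In 30 groups of 4 KO libraries, 1 for each tested member, the gap of the most extreme library to its nearest neighbour was divided by the group's range and compared with Dixon's 95% critical value. That value was exceeded for 2 members, and chance flags about 1 group in 20. For Cdkn1a the ratio was 0.959, with KO library 1 at 47.5 CPM and the other KO libraries between 60.3 and 60.9 CPM. For Pmaip1 it was 0.926, with KO library 1 at 31.7 CPM and the others between 59.5 and 61.7 CPM. Without KO library 1, Cdkn1a did not pass the edgeR test between KO and FL.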

How the results depend on the processing

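Counts of called members are given first and counts of all called genes after them, by edgeR unless another tool is named. For KO over FL (8 and 801), DESeq2 gave 15 and 1498. No count filter gave 13 members (12 higher and 1 lower), the 1 CPM filter 5, length offsets 5 and all 12 libraries in 1 fit 3. limma gave 0 members on log2(TPM + 1) with 149 genes, 0 on log2(TPM + 0.1) with 57, and 0 without a filter with 193. In these fits 15, 15 and 13 members had an unadjusted p under 0.05. Among all genes the unadjusted counts were 2466 of 14961, 2367 of 14961 and 4311 of 38310, in the same order. KO libraries 1 and 2 alone gave 0 and 89, and 3 and 4 alone 24 and 3292. Libraries left out in turn gave 0 to 10 members and 0 to 857 genes. For the replicate block, FL and KO share only numbers: same-numbered libraries correlated at 0.343 and -0.466. That fit called 0 members (19 unadjusted) and 0 genes (2589 unadjusted). All 8 called members kept their direction in all 18 alternatives. For each of the 8, all 4 KO libraries stood above both FL libraries, so leaving libraries out could hardly turn the direction.

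For BRE-positive over BRE-negative (1 and 459), no count filter gave 2 and 1010, length offsets 0 members, all 12 libraries in 1 fit 0 and 0, and limma 0 and 0 in its 3 forms (8 to 12 members unadjusted). Without the replicate block, 0 members (0 unadjusted) and 0 genes (343 unadjusted) passed. Pairs left out in turn gave 0 to 12 members and 200 to 2225 genes. Trp53 turned from -0.07 to 0.02 in all 3 limma fits (0.0218, 0.0220 and 0.0218), where the median of all genes shifted by 0.07, 0.10 and 0.03, and Cdkn1a ranged from -0.019 without replicate 3 to 0.21 without replicate 1.

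For BRE-negative over FL (14 and 7474), limma gave 9 members on log2(TPM + 1), 7 with 4916 genes on log2(TPM + 0.1) and 7 without a filter. Libraries left out gave 6 to 18 members and 4623 to 8247 genes. Cdkn1a ranged from -0.65 without BRE-negative replicate 1 to 0.059 without BRE-negative replicate 2. The replicate block gave 12 members, and BRE-positive over FL 16. Other alternatives stayed within 1.5 times. The cause of these differences was not tested. A fit with 1 FL library assumes that it varies like the others.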
